A study of Mus musculus with 3 samples.

Results

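The mitochondrial ribosome is the machine that translates the few messenger RNAs transcribed from the mitochondrial genome. Its protein subunits are encoded in the nucleus, made in the cytosol and imported, whereas its RNA scaffold is transcribed inside the organelle, with mt-Rnr1 in the small subunit and mt-Rnr2 in the large subunit. A complete ribosome therefore draws on both genomes, and its products are core subunits of the respiratory chain. The mitochondrial ribosomal protein genes were taken here as the protein-coding genes whose mouse symbol begins with Mrpl or Mrps followed by a number. In the annotation 78 genes fitted, and 77 of the 29267 measured gene identifiers were members, 48 named for the large subunit and 29 for the small. Mrpl33 was the gene without a column, and 5 further symbols that fitted were not protein-coding and were left out. The symbols carry older assignments: the proteins of Mrps18a and Mrps30 are known to sit in the large subunit, and Mrps36 is now known as a subunit of the oxoglutarate dehydrogenase complex. They were kept with the small subunit as the symbols have them.

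The measurements are counts of unique molecular identifiers (UMIs, tags that let each captured RNA molecule be counted once) in single mouse embryonic stem cells derived from the blastocyst. All cells carried the genotype Mll1fl/fl with Cre-ER TM on the C57BL/6J background, that is, loxP-flanked alleles of Mll1 and an inducible Cre recombinase, so the control cells carry the recombinase too. Mll1, now named Kmt2a, encodes a histone H3 lysine 4 methyltransferase. The 3 groups were Mll1fl/fl control cells, Mll1-/- cells (deleted) and cells under Mll1 inhibition (inhibited), and each of 3 chips, called plates 1, 2 and 3, held all 3 groups. The labels name no inhibitor, dose or time, and whether the plates hold separate cultures or clones is not stated. The p-values therefore rest on how far the differences between groups vary from plate to plate, and this variation could be technical.

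Of 4610 wells of the 3 groups, 4413 had at least 1000 genes detected and less than 20% mitochondrial UMIs and were kept. They comprised 1513 control, 1310 deleted and 1590 inhibited wells, with medians of 39644, 34721 and 32890 UMIs. Summed per plate and cell type they gave 9 libraries of 25914860 to 43773924 UMIs, of which the members took 4547688 in all. The kept wells carried 3260 different well barcodes, of which 1040 occurred on more than 1 plate and 113 on 3. Kmt2a itself (ENSMUSG00000002028, GRCm38 chromosome 9, 44803355 to 44881296, minus strand) was at 51.7 ± 2.60 counts per 1000000 UMIs (CPM; SD, n = 3 plates) in control, 50.4 ± 11.4 in deleted and 43.6 ± 3.02 in inhibited cells. Neither the removed exons nor the end of the transcript that was read are stated, so this level does not check the labels. The 8 pluripotency markers examined were detected in every group. A sum over wells does not separate fewer cells with a transcript from fewer transcripts per cell.

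Promoter sequences are shown first, because genes for mitochondrial ribosomal proteins are textbook targets of the nuclear respiratory factors NRF1 and the ETS-family protein NRF2 (GABP), and YY1 sites are common among them. RefSeq promoters (build GRCm38.p6, from 250 bases before to 50 after the start site) were found for 68 of the 77 members, 74 promoters in all. Below are the 120 bases before the start site, 5′ to 3′ on the gene's own strand. Mrpl32 shows an NRF1-rich promoter and Mrpl22 one with an ETS and an NRF1 match, both chosen after the matches were seen. Mrps18a and Mrps16 show ETS matches on either strand in genes described under deletion. Of the others described there, Mrpl34 held an ETS match in these 120 bases, while Mrpl18, Mrpl11, Mrps24 and Mrpl49 held no match in them. A further promoter of Mrps16 held no match either. Elsewhere in their windows Mrpl18 held an ETS match, and Mrps24 and Mrpl49 a YY1 match each. A link between matches and differences was not tested. Mrpl36 shows a YY1 match in the member with the lowest ratio in wells rich in mitochondrial ribosomal RNA. Capitals mark matches, on either strand, to GCATGCGC (NRF1), CCGGAAG (ETS) or AAGATGGC (YY1).
Mrpl32, chr13:14613038-14613157, minus strand: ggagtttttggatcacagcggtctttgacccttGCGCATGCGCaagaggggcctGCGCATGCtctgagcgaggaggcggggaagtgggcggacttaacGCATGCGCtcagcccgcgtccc
Mrpl22, chr11:58171544-58171663, plus strand: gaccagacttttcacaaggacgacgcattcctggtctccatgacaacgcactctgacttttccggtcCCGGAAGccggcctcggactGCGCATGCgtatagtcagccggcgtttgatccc
Mrps18a, chr17:46110884-46111003, plus strand: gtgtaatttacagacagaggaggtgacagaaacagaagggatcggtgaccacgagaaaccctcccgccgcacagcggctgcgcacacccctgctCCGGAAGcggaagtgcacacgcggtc
Mrps16, chr14:20393491-20393610, minus strand: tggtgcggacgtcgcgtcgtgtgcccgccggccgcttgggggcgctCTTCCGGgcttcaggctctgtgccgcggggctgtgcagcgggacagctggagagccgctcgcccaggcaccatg
Mrpl36, chr13:73330889-73331008, plus strand: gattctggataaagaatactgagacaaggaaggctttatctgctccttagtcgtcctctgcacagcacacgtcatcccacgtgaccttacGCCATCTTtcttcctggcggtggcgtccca

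Across the whole windows of 300 bases, ETS letters stood in 25 of the 74 member promoters (33.8%), against 11.9% of the 20150 promoters of protein-coding genes and 8.86% of all 32851 promoters. YY1 letters stood in 12 member promoters (16.2%, against 3.11% of protein-coding promoters), and NRF1 letters in 7 (9.46%, against 3.65%). Any of these 3 motifs was present in 37 of the 74 member promoters (50%) and in 17.2% of protein-coding promoters. The other motifs searched, on both strands, differed less. GGGCGG (SP) stood in 52.7% of member and 47.8% of protein-coding promoters, CCAAT in 39.2 and 37.8%, and TATAAA in 6.76 and 12.1%. Overlapping matches were counted, and a promoter counted once per motif. Split by subunit, NRF1 letters were in 6 of 47 large subunit and 1 of 27 small subunit promoters, whereas ETS letters were in 14 and 11 and YY1 letters in 6 and 6. These are counts of letters, not of occupied sites, and no test was made of them.

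**Figure D1:**
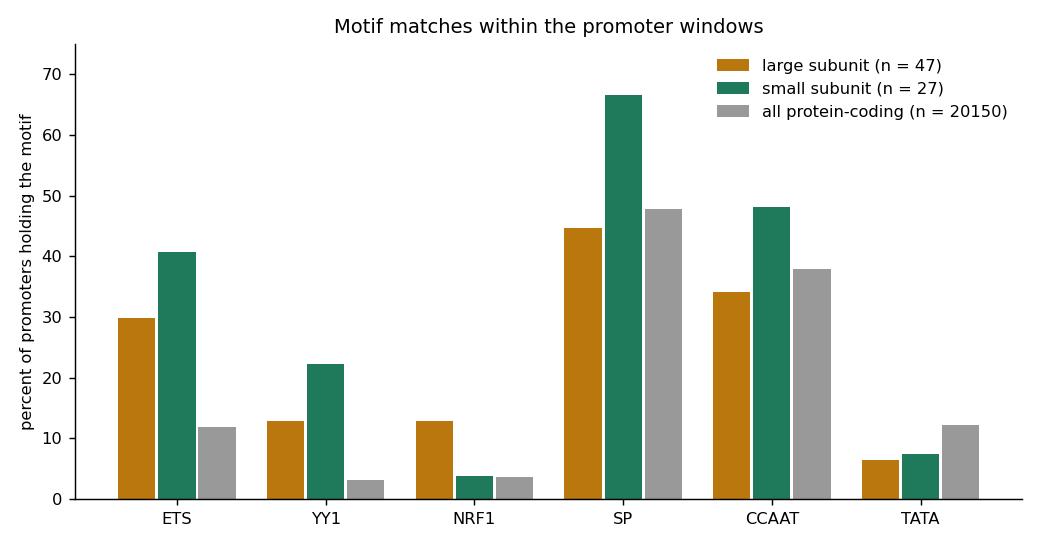
Percent of promoter windows (y axis) that hold each of 6 motifs (x axis) on either strand, for 47 large subunit promoters, 27 small subunit promoters and 20150 promoters of protein-coding genes. The ETS bars reach 29.8 and 40.7% for the subunits and 11.9% for protein-coding genes, while the CCAAT bars lie at 34.0, 48.1 and 37.8%.

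Many members also shared a divergent arrangement with a neighbour. A protein-coding gene on the opposite strand started head to head, within 1000 bases or with an overlap of up to 200, at 23 of 77 members (29.9%), against 1743 of 22028 protein-coding genes (7.91%). The partners included Ndufs6, a subunit of respiratory complex I, at Mrpl36, and Psma2, a proteasome subunit, at Mrpl32. Sars2, the mitochondrial seryl-tRNA synthetase, lay at Mrps12, and Fau, which encodes a ribosomal protein of the cytosol, at Mrpl49. The members lay on 17 chromosomes, with 11 on chromosome 11 and 8 on chromosome 17, so they do not form a cluster. Their median exon length was 2255 bases against 3488 for protein-coding genes. Exons of 32 members overlapped another gene, 7 of them on the same strand and 28 on the opposite strand. It is not stated whether strand was used in counting, so values of these genes are uncertain. Among the genes named below this concerns Mrps24, Mrps18c, Mrps34, Mrpl53 and Mrpl3 on the same strand. On the opposite strand it concerns Mrps34, Mrpl53 and Mrpl3 as well, and Mrpl49, Mrpl36, Mrps30, Mrpl13, Mrpl12, Mrpl18, Mrpl21, Mrpl9 and Mrps18b.

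Although the proteins are built into 1 particle, the transcripts differed widely in level. Levels between genes are given as CPM per kilobase of merged exon length, averaged over the 9 libraries. The end of the transcript that was read is not stated, and if UMIs stem from 1 end, division by length distorts this order, so levels without it are given too. The large subunit members had a median of 59.2 CPM per kb and the small subunit members of 32.1, or 168 and 114 CPM without division by length. In the large subunit Mrpl54, a protein specific to mitochondria, led with 403 CPM per kb. It was followed by Mrpl42 (389), Mrpl34 (352), Mrpl20 (327) and Mrpl18 (268). Without division Mrpl42 led with 1432 CPM, followed by Mrpl13 (778) and Mrpl20 (544), and Mrpl54 was at 332. Mrpl42 too has no bacterial counterpart, while Mrpl34, Mrpl20 and Mrpl18 do.

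In the small subunit Mrps18c led with 400.2 CPM per kb, followed by Mrps21 (399), Mrps12 (231), Mrps28 (187) and Mrps24 (187). Without division Mrps14 led with 559 CPM, ahead of Mrps16 (511) and Mrps18c (431). Mrps12 is the counterpart of the bacterial protein at the decoding centre, and Mrps24 is the counterpart of bacterial S3. The ends of the order were Mrpl3 (6.92 CPM per kb), which belongs to the core of the large subunit, and Mrpl23 (2.93), a protein at the exit of the peptide tunnel. In the small subunit they were Mrps30 (6.73), Mrps18b (5.17) and Mrps34 (5.02). Mrpl53 was close to absent, with 6 UMIs in all kept wells and no column on plate 2. Neighbours at the low end overlapped over libraries. Mrps34 ranged from 6.63 to 15.5 CPM over the 9 libraries and Mrps18b from 6.60 to 14.0.

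**Figure D2:**
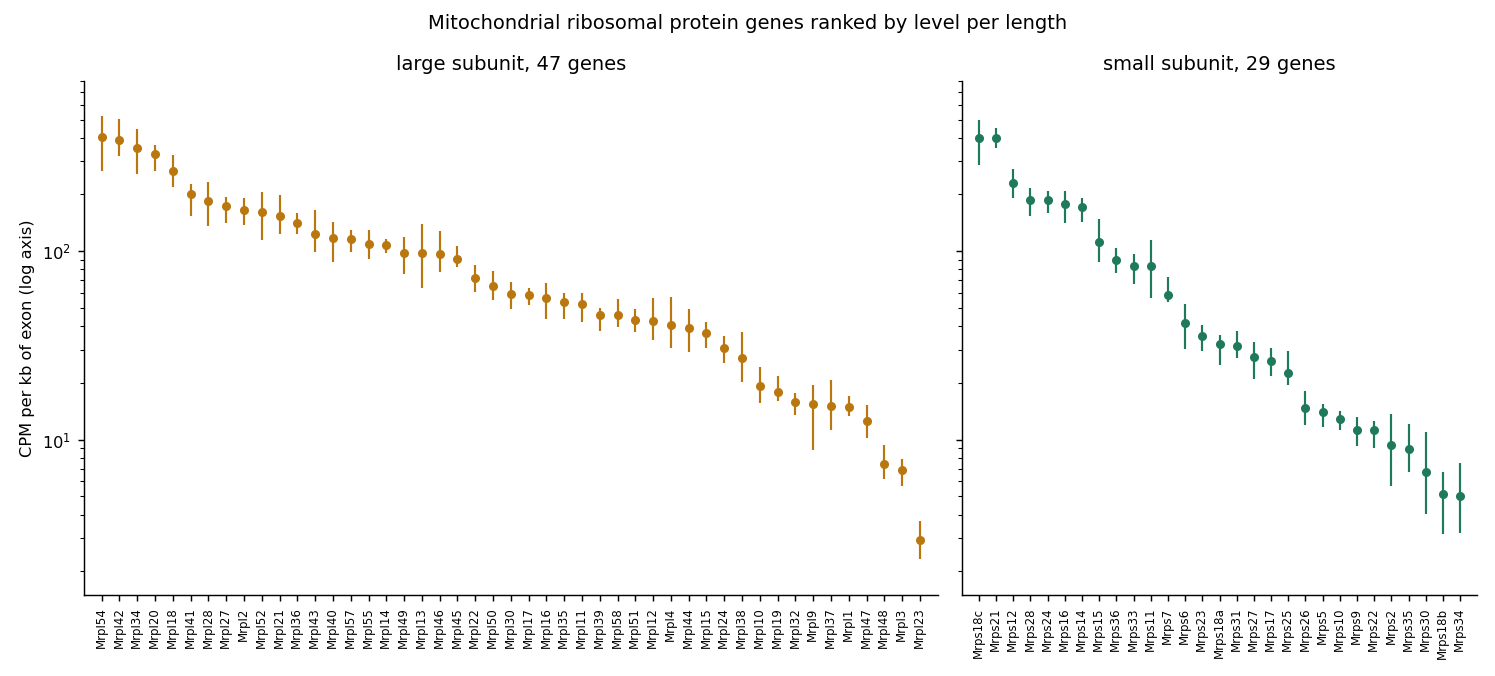
Level per length of each member on a log axis (y axis, CPM per kb of exon), ranked within the large subunit (left, 47 genes, without Mrpl53) and the small subunit (right, 29 genes). Points are means over 9 libraries and lines run from the lowest to the highest library; the points fall from 403 to 2.93 in the large and from 400.2 to 5.02 in the small subunit.

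The paralogues Mrps18a, Mrps18b and Mrps18c, whose products all descend from bacterial S18, differed widely in level. Their levels were 32.1, 5.17 and 400.2 CPM per kb, and their values in single libraries did not overlap. Mrps18c lay between 309 and 532 CPM in the 9 libraries, Mrps18a between 92.0 and 132, and Mrps18b between 6.60 and 14.0.

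In single wells the members were counted after each well had been thinned to 5869 UMIs, which 3971 of the 4413 kept wells reached (1410 control, 1147 deleted, 1414 inhibited). At that depth a well held a median of 83 member UMIs, with an interquartile range of 70 to 96 and the extremes at 19 and 171. The median number of members with a UMI was 34 in control, 31 in deleted and 32 in inhibited wells, and 58, 53 and 53 before thinning. Mrpl42 had a UMI in 95.9% of thinned wells, Mrpl20 in 87.4%, Mrpl13 in 86.6%, Mrps14 in 84.6% and Mrps18c in 80.3%. The smallest shares were those of Mrps2 (11.3%), Mrpl23 (7.03%), Mrps34 (5.29%), Mrps18b (4.33%) and Mrpl53, which had a UMI in 0 of 3971 wells, allowing a share of up to 0.0755% (counting error only). As a background, the 15 wells without cells held 0 to 6 member UMIs each, 48 of their 2719 UMIs in all. In these wells Mrpl42 had 4 UMIs, Mrpl13 and Mrps18c 3 each, Mrpl20 2 and Mrps14 1.

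The sum of the members was shaped by few genes. The 5 with most UMIs (Mrpl42, Mrpl13, Mrps14, Mrpl20 and Mrps16) took 26.9% of all member UMIs, and Mrpl42 alone 10.1%. The 5 members whose share in a well followed the sum of the other members best were abundant ones, with Spearman's rho of 0.24 for Mrpl42 and 0.21 for Mrpl13 and Mrps14. Over the 76 members with a value, rho had a median of 0.07 and was above 0 for 74. In counts this sparse such values describe the wells and single genes cannot be ranked by them.

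With Mll1 deleted, no single member passed the test, but most lay slightly below control. The members with the smallest p-values belonged to both subunits. Mrpl18, the counterpart of a bacterial protein that binds ribosomal RNA, measured 373, 419 and 363 CPM in control cells of plates 1, 2 and 3 and 322, 376 and 305 in deleted cells. The deleted library was the lower on each plate, although the groups overlapped, because plate 2 was high in both. The log2 difference was -0.21 ± 0.06 (SE; adjusted p = 0.275, edgeR quasi-likelihood test with plate as a block, adjusted by Benjamini-Hochberg over 17119 genes). Mrps16, a conserved small subunit protein, measured 525, 599.9 and 493 CPM in control and 435, 519 and 407 in deleted cells. It too was lower on each plate, at -0.25 ± 0.08 (adjusted p = 0.305 by edgeR). Mrpl11, at the base of the stalk that recruits translation factors, was at 178, 193 and 171 CPM in control and 154, 154 and 136 in deleted cells. Here the groups did not overlap, and the log2 difference was -0.29 ± 0.09 (adjusted p = 0.321 by edgeR).

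The other members with the smallest p in this comparison were Mrps24 (-0.24), Mrpl49 (-0.26), Mrps18a (-0.25), Mrpl34 (-0.27) and Mrpl15 (-0.19), all lower on 3 of 3 plates, with adjusted p up to 0.398 by edgeR. None of the 76 tested members was called at an adjusted p under 0.05 by edgeR, while 0.035% of all genes were, 6 of 17119. At an unadjusted p under 0.05, 0 members were higher and 17 lower (22.4%), against 5.11 and 5.22% of all genes. The median SE was 0.095 for the members and 0.30 over all genes, so these shares were not taken at like precision. At the same threshold 19.5% of nuclear respiratory chain subunits and 48.1% of cytosolic ribosomal proteins were lower, and 0 of either were higher. DESeq2 called 0 members too, against 3.01% of the 10813 genes to which it gave an adjusted p. The log2 difference was below 0 for 62 of the 76 and above 0 for 14, and their median was -0.10, against a median of 0.00 over all genes, of which 50% lay below 0. Of the members, 31 were lower on all 3 plates (40.8%, against 16.4% of all genes) and 0 were higher on all 3 (against 15.4%). The 3 deleted libraries lay entirely below the 3 control libraries for 7 members (9.21%, against 5.52%) and above them for 0 (against 5.44%). The subunits were alike in this count of directions. In the large subunit 39 of 47 members were below 0, with a median of -0.09, and in the small subunit 23 of 29, with a median of -0.12.

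Under inhibition more members lay above control than below it, and none passed the test. The control libraries are those of the deletion comparison. Mrpl42, the most abundant member by UMIs, was at 1326, 1553 and 1173 CPM in control and 1635, 1844 and 1458 in inhibited cells of plates 1, 2 and 3. Each inhibited library exceeded the control of its own plate, though the groups overlapped. The log2 difference was 0.29 ± 0.06 (adjusted p = 0.297 by edgeR). Mrpl40, a large subunit protein without a bacterial counterpart, was at 191, 212 and 181 CPM in control and 241, 253 and 230.0 in inhibited cells, without overlap, a log2 difference of 0.31 ± 0.09 (adjusted p = 0.365 by edgeR). Mrpl9, a conserved large subunit protein, was at 43.0, 43.5 and 52.7 CPM in control and 23.7, 41.7 and 35.1 in inhibited cells, again without overlap. It was the member with the lowest value in this comparison, at -0.49 ± 0.18 (adjusted p = 0.467 by edgeR).

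The remaining members with the smallest p were Mrpl37 (0.35), Mrps18c (0.20), Mrpl13 (0.34), Mrpl12 (0.27) and Mrpl2 (0.22), each higher on 3 of 3 plates, with adjusted p between 0.365 and 0.471 by edgeR. No member was called by edgeR, and 0.00584% of all genes were, 1 of 17119. At an unadjusted p under 0.05, 8 members were higher (10.5%) and 2 lower (2.63%), against 4.77 and 4.23% of all genes. Of nuclear respiratory chain subunits 19.5% were higher and 1.22% lower, and of cytosolic ribosomal proteins 0% and 49.4%. DESeq2 called 3 of the 72 members to which it gave an adjusted p (4.17%), Mrpl37, Mrpl40 and Mrpl42, all higher, against 6.15% of 4507 genes. That share was not above the background. The log2 difference was above 0 for 49 of 76 members and below 0 for 27, with a median of 0.06, against 0.00 over all genes, of which 49.9% lay above and 50.1% below 0. With wells thinned to equal depth that median was 0.02, and without plate 1 it was 0.03. Higher on all 3 plates were 29 members (38.2%, against 16.6% of all genes) and lower on all 3 were 7 (9.21%, against 16.4%). The groups did not overlap for 7 members that were higher (9.21%, against 5.02%) and 2 that were lower (2.63%, against 6.23%).

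Set directly against each other, inhibited cells were above deleted cells for most members. This comparison and the 2 before it share their libraries, so their directions are not independent of each other. Mrpl12, a protein of the stalk, was at 63.6, 52.1 and 53.2 CPM in deleted and 86.0, 71.8 and 70.1 in inhibited cells of plates 1, 2 and 3. The groups did not overlap, with a log2 difference of 0.43 ± 0.10 (adjusted p = 0.109 by edgeR). Mrpl42 was at 1333, 1323 and 1243 CPM in deleted cells and did not overlap with the inhibited values above, at 0.33 ± 0.06. Its adjusted p of 0.0692 by edgeR was the smallest of any member in the 3 comparisons. Mrps24 was at 233, 233 and 253 CPM in deleted and 302, 307 and 287 in inhibited cells, again without overlap, a log2 difference of 0.32 ± 0.07 (adjusted p = 0.117 by edgeR).

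The other members with the smallest p here were Mrpl18 (0.27), Mrpl30 (0.32), Mrpl21 (0.34), Mrps18c (0.28) and Mrpl40 (0.38), higher on 3 of 3 plates, with adjusted p between 0.0949 and 0.128 by edgeR. No member was called by edgeR, against 0.31% of all genes, 53 of 17119. At an unadjusted p under 0.05, 28 members were higher (36.8%) and 1 lower (1.32%), against 6.98 and 6.68% of all genes. As under deletion, the members had smaller SEs than most genes. Of nuclear respiratory chain subunits 42.7% were higher and 0% lower, and of cytosolic ribosomal proteins 10.1% and 5.06%. DESeq2 called 17 of 76 members (22.4%), 17 higher and 0 lower, against 4.78% of the 15127 genes to which it gave an adjusted p. The log2 difference was above 0 for 67 of 76 members and their median was 0.17, against 0.00 over all genes, of which 49.6% lay above 0. It was above 0 for 40 of 47 large subunit members and 27 of 29 small subunit members, with medians of 0.17 in both subunits. Higher on all 3 plates were 37 members (48.7%, against 17.5%) and lower on all 3 were 2 (2.63%, against 15.9%). Without overlap, 17 were higher (22.4%, against 5.39% of all genes) and 1, Mrpl9, was lower (1.32%, against 6.38%).

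**Figure D3:**
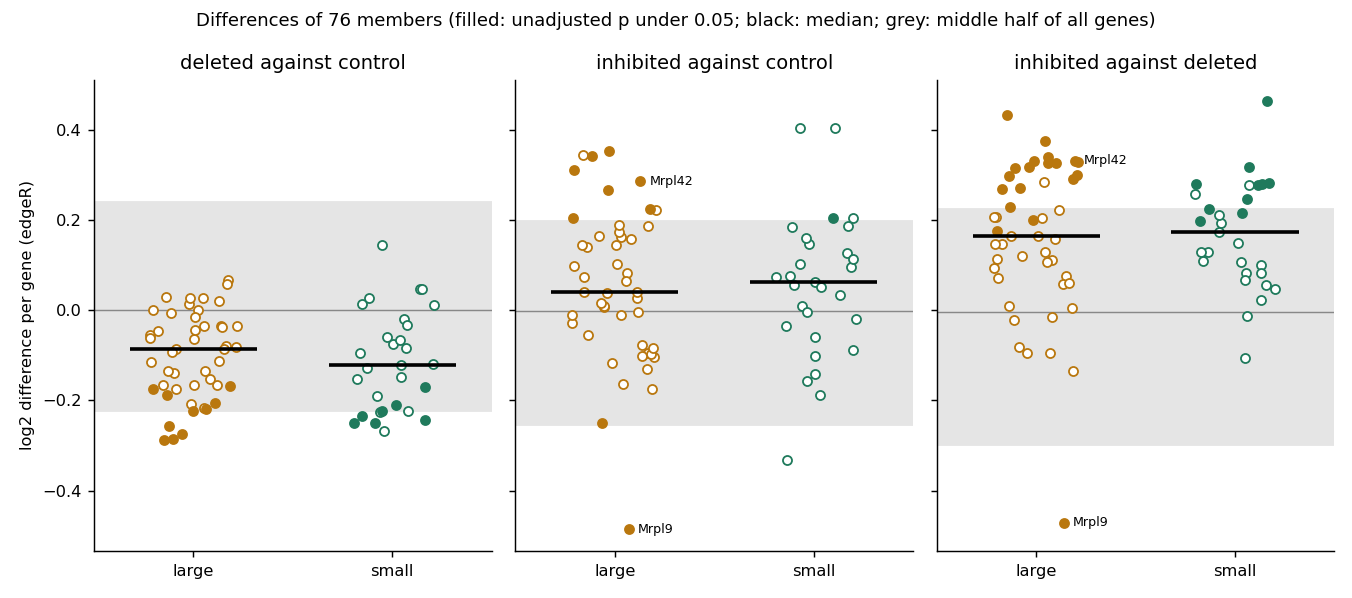
Log2 difference of each tested member (y axis) in the 3 comparisons, by subunit (x axis; 47 large, 29 small). Filled points have an unadjusted p under 0.05, black bars are medians and the grey band spans the interquartile range of all 17119 genes; medians lie at -0.09 and -0.12 under deletion, 0.04 and 0.06 under inhibition, and 0.17 in both subunits between inhibited and deleted cells.

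Summed, the large subunit members took 9650 ± 606 CPM in control (SD, n = 3 plates), 9085 ± 340 in deleted and 10504 ± 771 in inhibited cells. The small subunit members took 4544 ± 194, 4134 ± 95.7 and 4697 ± 288. All members together measured 13816, 15112 and 13655 CPM in control cells of plates 1, 2 and 3, 12738, 13530 and 13390 after deletion, and 15147, 16261 and 14195 under inhibition. The order deleted, control, inhibited thus held on each plate, although levels overlapped between plates. Taken as a mean of well shares, in which every well counts alike, inhibited cells of plate 3 lay below control (-0.04). The within-plate log2 differences were -0.12, -0.16 and -0.03 for deletion, 0.13, 0.11 and 0.06 for inhibition, and 0.25, 0.27 and 0.08 between inhibited and deleted cells. These sums carry no test. The source wells of a plate and cell type, 2 or 3 each, differed among themselves by 0.02 to 0.13 on the log2 scale.

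In summed UMIs the large subunit members lay slightly higher against the small ones in both Mll1 groups than in control, and this was not tested. The medians per gene followed this under deletion only. They were -0.09 in the large and -0.12 in the small subunit there, and 0.04 and 0.06 under inhibition. The ratio of large to small subunit UMIs was 2.12 ± 0.044 in control, 2.20 ± 0.049 in deleted and 2.24 ± 0.075 in inhibited cells (SD, n = 3 plates). Within plates its log2 difference was 0.02, 0.02 and 0.11 under deletion and 0.03, 0.09 and 0.11 under inhibition. With the proteins of Mrps18a and Mrps30 counted in the large subunit and Mrps36 left out, a choice made after the data were seen, the mean differences were 0.05 and 0.06. Without the 5 members of most UMIs the inhibition difference was 0.02. Depth of a well moved with the same ratio: between the shallowest and the deepest of 4 equal groups of wells, thinned to equal UMIs, it was higher by a median log2 difference of 0.11, in 9 of 9 libraries. How much of the difference between cell types depth accounts for was not tested.

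The ribosomal RNAs of the organelle and the CPM sum of all members went opposite ways under deletion and the same way under inhibition. By subunit this did not hold on plate 3. There the large subunit sum differed by 0.007 under deletion and the small subunit sum by -0.02 under inhibition. As a mean of well shares, the small subunit averaged -0.014 under inhibition. Within plates the log2 difference of both ribosomal RNAs together was 0.69, 0.54 and 0.56 under deletion and 0.25, 0.32 and 0.32 under inhibition. mt-Rnr2 rose under deletion, from 5513 ± 687 CPM in control to 8918 ± 1373 (log2 difference 0.69 ± 0.04 SE, adjusted p = 1.03e-04 by edgeR), and under inhibition, to 7201 ± 848 (0.39 ± 0.04, adjusted p = 0.0279 by edgeR). mt-Rnr1 rose under deletion, from 4061 ± 835 to 5645 ± 1665 CPM (0.46 ± 0.06, adjusted p = 0.0433 by edgeR). Under inhibition it was at 4530 ± 800 CPM (0.16 ± 0.06, adjusted p = 0.448 by edgeR). Both were higher than control on 3 of 3 plates in either comparison. The call of mt-Rnr1 under deletion was lost without plate 1, 2 or 3 (adjusted p of 0.171, 0.424 and 0.182 by edgeR) and under a stricter filter on wells (0.0664). That of mt-Rnr2 under inhibition was lost without plate 1, 2 or 3 as well (0.486, 0.783 and 0.181).

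The largest difference in balance was in deleted cells, where the protein sum was lowest and the ribosomal RNAs highest. Per member UMI there were 0.792, 0.525 and 0.720 UMIs of mitochondrial ribosomal RNA in control cells of plates 1, 2 and 3, 1.38, 0.854 and 1.08 after deletion, and 0.858, 0.608 and 0.867 under inhibition. The within-plate log2 differences were 0.80, 0.70 and 0.59 under deletion and 0.11, 0.21 and 0.27 under inhibition. Nuclear-encoded respiratory chain subunits went with the mitochondrial ribosomal proteins, at a mean of -0.09 under deletion and 0.07 under inhibition. The latter was 0.025 as a share of nuclear UMIs and 0.017 as a mean of well shares, with plate 3 below 0 in both. Proteins of the cytosolic ribosome were below control in both, at -0.15 and -0.12. No test was made of these sums.

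**Figure D4:**
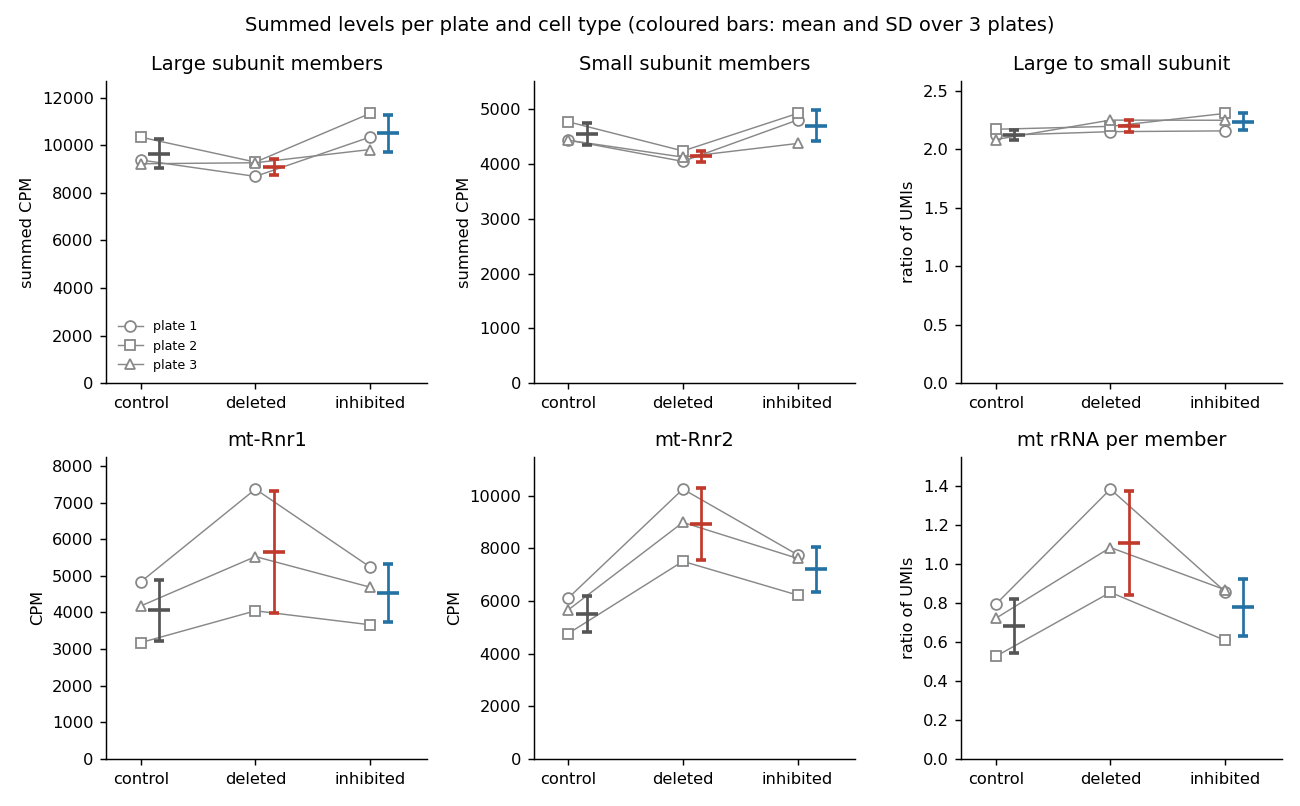
Summed CPM of the large and small subunit members, their UMI ratio, CPM of mt-Rnr1 and mt-Rnr2, and ribosomal RNA UMIs per member UMI (y axes, from 0) in control, deleted and inhibited cells (x axes). Open symbols joined by lines are the 3 plates and coloured bars are means with SD. Means of the protein sums are lowest and of the ribosomal RNAs highest in the deleted cells, where the mean of mt-Rnr2 is 8918 CPM. On plate 3 the large subunit sum is 9267 CPM in deleted and 9224 in control cells.

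Other features moved with the deleted group. The median share of mitochondrial UMIs per well was 4.16, 3.81 and 3.87% in deleted wells of plates 1, 2 and 3, against 3.11, 3.06 and 3.18% in control and 3.48, 3.24 and 3.42% in inhibited wells. The 8 trophectoderm markers summed to 968 to 1603 CPM in deleted libraries, 736 to 880 in control and 553 to 888 in inhibited ones. Most of this was Krt18, a simple epithelial keratin, at a mean of 1027 CPM in deleted cells, against 592 in control. The lineage factor Cdx2 was at 2.90 in control and 5.10 in deleted cells and Elf5 at 0.0275 and 0.0112. Of the 7 tested under deletion 7 were above 0, and none was called by edgeR, with 3 at an unadjusted p under 0.05, while DESeq2 called Krt18 and Krt8 as higher. In inhibited against deleted cells edgeR called both as lower, Krt18 at -0.85 (adjusted p = 0.0185) and Krt8 at -0.89 (adjusted p = 0.0318). The 8 fibroblast or feeder markers summed to 178 to 207 CPM in deleted, 148 to 176 in control and 147 to 184 in inhibited libraries. Of these, Acta2 was at means of 3.81 CPM in control and 13.1 in deleted cells (adjusted p = 0.225 by edgeR, called by DESeq2), Vim at 108 and 123, and Col1a1 at 0.368 and 0.190. The 8 primitive endoderm markers summed to 358 to 513, 337 to 410 and 325 to 382 CPM in deleted, control and inhibited libraries. Sparc made up most of this, at means of 408, 358 and 339 CPM. Under deletion 5 of the 8 were below 0 and 3 above, with a median log2 difference of -0.26. The 8 pluripotency markers summed to 5074 to 6507, 6149 to 6321 and 4498 to 5342 CPM in the same order. Dppa5a made up most of that, at means of 5084, 5515 and 4248 CPM. No marker was at 0 in every library of a group. The part of these features in the member values was not tested.

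Within a library, wells rich in mitochondrial ribosomal RNA held a smaller share of member transcripts. The members' share of nuclear-genome UMIs was compared with the share of mt-Rnr1 and mt-Rnr2 in all UMIs, in thinned wells. Spearman's rho was -0.23, -0.11 and -0.16 in control wells of plates 1, 2 and 3 (579, 519 and 312 wells), -0.31, -0.31 and -0.41 in deleted wells (374, 332 and 441 wells) and -0.16, -0.20 and -0.22 in inhibited wells (490, 502 and 422 wells). It was negative in 9 of 9 libraries with a median of -0.22, and most negative in deleted wells on each plate, a difference between cell types that was not tested. In wells between the quartiles of depth that order did not hold on plate 1, where rho was -0.30 in control and -0.29 in deleted wells. Wells of a library share plate and cell type, and the numerators of the 2 shares have no UMIs in common. The denominator of the ribosomal RNA share, all UMIs, includes the nuclear UMIs over which the members were taken. The values of rho are descriptions without a p-value.

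The median relation was negative in each alternative run. It was -0.23 in unthinned wells, -0.18 in wells between the lower and upper quartiles of depth, -0.16 under a filter of 2000 genes and 10% mitochondrial UMIs, and -0.14 with the ribosomal RNAs as a share of mitochondrial UMIs. Large subunit members had a median rho of -0.23 with the ribosomal RNAs and small subunit members of -0.12. Messenger RNAs of the mitochondrial genome gave -0.16. For comparison, nuclear respiratory chain subunits had -0.14 with the ribosomal RNAs and cytosolic ribosomal proteins -0.02. The members' share went with that of the respiratory chain subunits (0.37), less with that of cytosolic ribosomal proteins (0.17), and hardly with total UMIs (0.05). Both subunits went together at 0.25, and mt-Rnr1 with mt-Rnr2 at 0.57.

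The wells of each library were divided into 4 equal groups by their mitochondrial ribosomal RNA share. In the lowest group the members took a median over libraries of 1.53% of nuclear-genome UMIs, and in the highest group 1.34%. The log2 difference had a median of -0.19, ranged from -0.39 to -0.09, and was below 0 in 9 of 9 libraries. It was -0.23 for the large and -0.16 for the small subunit, -0.12 for respiratory chain subunits and -0.01 for cytosolic ribosomal proteins. The ribosomal RNA share itself was 0.496% in the lowest and 2.85% in the highest group. Depth moved with it in part: median total UMIs were higher in the highest group in 3 of 9 libraries and lower in the others, with a median log2 difference of -0.25. Across groups of depth itself the members were higher in the deepest group in 5 of 9 libraries. The ribosomal RNA share was higher there in 0 of 9, with a median log2 difference of -0.48 and a range of -0.66 to -0.04. Across all thinned wells its rho with total UMIs had a median of -0.01 over libraries, from -0.08 to 0.12.

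**Figure D5:**
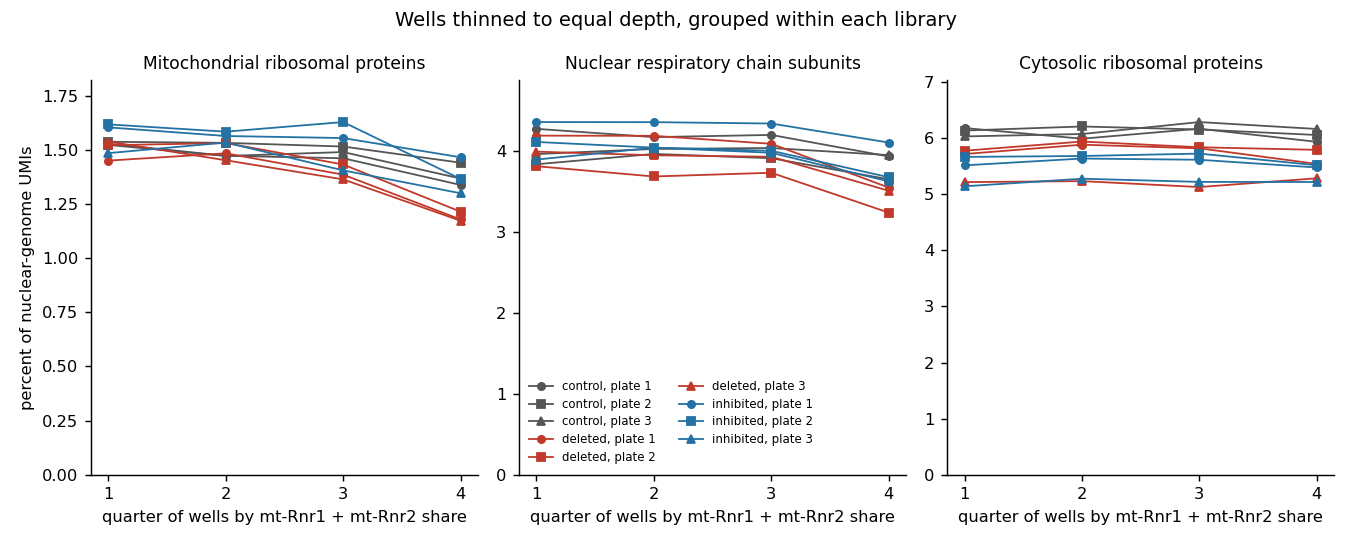
Share of nuclear-genome UMIs (y axis, percent, from 0) of mitochondrial ribosomal protein genes, nuclear respiratory chain subunits and cytosolic ribosomal proteins in 4 equal groups of wells ordered by their mt-Rnr1 and mt-Rnr2 share (x axis), 1 line per library. In the highest group the members lie below the lowest group in 9 of 9 libraries, with medians of 1.34 and 1.53%.

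This difference was spread over most members. Over 73 members with at least 200 UMIs in both groups together, 66 were lower in the highest group (90.4%, against 44.3% of 6145 nuclear genes), with a median log2 ratio of -0.18 against 0.04. Cytosolic ribosomal proteins lay at 0.00 in the median, with 37 of 77 below 0. Mrpl36, a small conserved large subunit protein, averaged 177 CPM in the lowest and 134 in the highest group, a log2 ratio of -0.40, and was lower in 9 of 9 libraries. Mrpl21 (-0.40), Mrpl40 (-0.40) and Mrps24 (-0.39) were also lower in 9 of 9 libraries. Like Mrpl36 they were named after the values were seen, for the lowest ratios of the 73. Lower in 8 or 9 libraries were 21 members (28.8%, against 10.1% of nuclear genes).

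A few members went against this, chosen here after their values were seen. Mrps30, whose protein sits in the large subunit despite its symbol, averaged 33.7 CPM in the lowest and 63.5 in the highest group. Its log2 ratio was 0.91, and it was lower in 0 of 9 libraries. Mrpl3 was at 0.24 and Mrpl12 at 0.13, each lower in 4 of 9 libraries. Exons of Mrps30 overlap an antisense gene, B430218F22Rik, and counts of the pair cannot be told apart without strand.

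Genes that build and serve the ribosome were examined from lists chosen with earlier results of these data known. Of 5 measured mitochondrial ribosomal proteins with other symbols, none was called by edgeR in any comparison, with 0, 1 and 3 at an unadjusted p under 0.05 for deletion, inhibition and their direct comparison. Of all genes 10.3, 9 and 13.7% passed that threshold in either direction. DESeq2 called Aurkaip1, a small subunit protein, in the last. It was at 311, 364 and 325 CPM in deleted and 351, 414 and 386 in inhibited cells of plates 1, 2 and 3. Of 24 assembly and ribosomal RNA modification factors, 1 rose between deleted and inhibited cells. This was Rbfa, which matures the small subunit, at 78.2, 95.0 and 76.8 CPM in deleted and 106, 128 and 123 in inhibited cells (log2 difference 0.52 ± 0.09, adjusted p = 0.0443 by edgeR). The inhibited libraries lay above the deleted ones without overlap. The median over the 24 was 0.03 there, -0.06 under deletion and -0.04 under inhibition.

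Of 14 translation factors, 17 aminoacyl-tRNA synthetases, 12 factors of mitochondrial DNA transcription and maintenance and 8 tested nuclear regulators of mitochondrial biogenesis, none was called by edgeR in any comparison. At an unadjusted p under 0.05 there were 2, 1, 1 and 0 of them under deletion, 1, 2, 0 and 1 under inhibition, and 1, 2, 3 and 2 between inhibited and deleted cells, against the 10.3, 9 and 13.7% of all genes. DESeq2 called Lars2, the leucyl-tRNA synthetase, as lower in both comparisons with control. By edgeR it was at -0.97 ± 0.22 in each (adjusted p of 0.196 under deletion and 0.332 under inhibition). Gfm2, which helps to recycle the ribosome, was at -0.56 ± 0.18 under deletion (adjusted p = 0.328 by edgeR). Tfam, which packages and transcribes mitochondrial DNA, was at -0.21 ± 0.11 (adjusted p = 0.554 by edgeR), and Nrf1 was at 0.27 ± 0.11 under inhibition (adjusted p = 0.518 by edgeR).

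Medians for deletion, inhibition and their direct comparison were -0.08, 0.01 and 0.06 for the translation factors. They were -0.11, 0.09 and 0.27 for the nuclear regulators and 0.03, 0.02 and 0.18 for transcription and maintenance. The synthetases lay within 0.01 of 0 in all 3. Of 10 tested messenger RNAs of the mitochondrial genome, 9 were above 0 under deletion, and 10 of 10 below 0 between inhibited and deleted cells. None of them was called by edgeR, with 6, 4 and 5 of 10 at an unadjusted p under 0.05 in the 3 comparisons, against the 10.3, 9 and 13.7% of all genes. DESeq2 called 3, 1 and 2 of them, against 3.01, 6.15 and 4.78% of the genes to which it gave an adjusted p.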

How the data were processed

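UMIs were counted per gene and well on 3 plates. The build was mm10, and the tools named are featureCounts, Subread 1.4.6-p1 and STAR 2.5.2b, per the submitters' processing notes. The deposited values are raw counts of UMIs per gene and well; row sums of all 4640 wells equalled those in the deposited reports, which give each well's type. GENCODE M21 named 28682 of 29267 identifiers. Spike-in and reporter rows (0.752, 0.690 and 0.646% of UMIs on plates 1, 2 and 3) were left out. Wells with at least 1000 genes and under 20% mitochondrial UMIs were summed per plate and cell type. One edgeR 4.0.16 model (R 4.3.3, with TMM, filterByExpr and the quasi-likelihood F test) held cell type and plate over the 9 sums, with BH adjustment at 0.05. It was also run on simulated counts with larger changes than those of the members and no plate effect. That run cannot show whether changes of the members' size would be called. Same-plate libraries deviated together (r = 0.293 to 0.471 over 9 pairs), and the labels put all 3 types on each plate. DESeq2 1.42.0 was an alternative. Members, lists and alternatives were chosen with earlier results of these data known. Named members were those with the 8 smallest p per comparison, the 5 highest and 3 lowest levels per kb and subunit, the 5 highest and 5 lowest shares of thinned wells with a UMI, the 5 that best followed the other members, and the Mrps18 paralogues. Further members were named for promoter matches or for ratios between groups of wells, after these were seen. From each list up to 3 genes with the smallest p could be named. Doublets were not called; instead, leaving out the deepest 5% of wells was added as an alternative after the data were seen, as was an assignment of subunits by structure. Other alternatives changed normalization, filters, thinning and plates. Depth and wells per library limit the precision.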

Additional observations from a re-analysis of the deposited data

Results flagged for a closer look

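The difference between the 2 Mll1 groups was tested directly for mt-Rnr2, and it was lower in inhibited than in deleted cells, at -0.30 on the log2 scale (adjusted p = 0.0207 by edgeR, lower on 3 of 3 plates), while the protein sum was higher in inhibited cells on each plate. Without plate 1 or plate 2 the adjusted p was 0.324 or 0.347 by edgeR. In the 15 wells of control RNA, which enter no comparison, a median of 8 member UMIs per well was counted, and a median of 3 in the 15 wells without cells. These wells differed in depth, with medians of 904 and 165 UMIs. As a share of all their UMIs the members took 1.18% in control RNA and 1.77% in wells without cells.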

How the results depend on the processing

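Without the plate as a replicate block, edgeR called 0, 0 and 3 genes for deletion, inhibition and inhibition against deletion, in place of 6, 1 and 53. The corresponding counts were 179, 108 and 383 with no filter on low counts, 90, 106 and 191 with wells thinned, and 325, 277 and 723 by DESeq2. Leaving out 1 plate at a time gave 1 to 5, 0 to 0 and 0 to 73 genes. Without the mitochondrial genome 3 and 0 were called for deletion and inhibition, and without the deepest wells 31 for inhibition against deletion. Members called under inhibition were 2 with no filter, 1 with wells thinned and 3 by DESeq2. Between inhibited and deleted cells they were 6, 3 and 17, 1 without the deepest wells, and 0 to 2 with 1 plate left out. Under deletion 0 members were called with each alternative run. The median member difference under deletion was -0.074 without the deepest wells. The summed members differed under inhibition by 0.047 with wells thinned, 0.033 as a mean of well shares, 0.051 as a share of nuclear UMIs and 0.055 without the 5 members of most UMIs. For the large subunit these were 0.070, 0.055, 0.075 and 0.060. As a mean of well shares, the small subunit sum differed by -0.10 under deletion and 0.081 between inhibited and deleted cells. The ratio of the subunits under inhibition was 0.017 without the 5 members of most UMIs. The small subunit sum under inhibition changed sign in 2 of 9 alternatives, and the ratio between inhibited and deleted cells did so in 1 of 9. mt-Rnr1 under deletion and mt-Rnr2 in every comparison were not called without the replicate block. mt-Rnr2 under deletion was called with each of the other alternatives that kept the mitochondrial genome.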

Other observations

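Of the wells left out, 25, 36 and 23 on plates 1, 2 and 3 had at least 1000 genes but 20% or more mitochondrial UMIs. In them the members took 1.10, 0.991 and 1.17% of nuclear-genome UMIs, against 1.46, 1.52 and 1.45% in the kept wells of the same plates, log2 differences of -0.40, -0.62 and -0.31. Their mitochondrial ribosomal RNA share was 10.5, 10.3 and 8.77%, against 1.34, 0.966 and 1.27%. They were not thinned, and their median nuclear-genome UMIs were 14213, 13711.5 and 32677 on plates 1, 2 and 3. Over all kept wells the median of total UMIs was 36355. These wells were defined by the mitochondrial share itself and pool the 3 cell types, and no test was made.

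The ratio of mt-Rnr2 to mt-Rnr1 UMIs was 1.37 ± 0.12 in control, 1.62 ± 0.23 in deleted and 1.60 ± 0.11 in inhibited cells (SD, n = 3 plates). Within plates its log2 difference from control was 0.14, 0.31 and 0.26 in deleted and 0.23, 0.18 and 0.26 in inhibited cells.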
